A study of Mus musculus with 36 samples.

Results

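This comparison asked how wild-type nephron progenitor cells (NPCs) changed across the transcriptome when the dose of the GSK3β inhibitor CHIR99021 (CHIR) in their medium was raised from 1.25 µM (low CHIR) to 5 µM (high CHIR). Its members are the 3 high CHIR and 3 low CHIR RNA-seq libraries of wild-type NPCs, 6 of the 36 libraries of the series, described across the 17411 of 25760 listed genes whose mean over the 9 wild-type libraries was at least 10 normalized counts. The cells of both groups were primary mouse NPCs from embryonic kidneys, obtained by enzymatic digestion and magnetic depletion of other cell types and cultured on Matrigel in nephron progenitor expansion medium (NPEM), a defined medium for expanding these cells. They carried no targeted allele, guide RNA or transfected mRNA, and the only stated difference between the groups is the dose of CHIR. A further 3 wild-type libraries without CHIR (0 µM) entered the gene filter and the estimate of the spread between replicates, and 455 of the genes tested passed the filter only through them. The cells came from Swiss Webster or C57Bl/6 mice, but the strain is not given for a library, and nothing says whether replicates came from separate cultures, so p-values measure the spread between these libraries, which may be technical. The preparation is an enrichment by depletion and not a sort of one cell type. In a bulk library, fewer cells of a type and less RNA per cell cannot be told apart.

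CHIR blocks GSK3β, a kinase of the complex that marks β-catenin for destruction, so that β-catenin accumulates and acts with Tcf and Lef factors at Wnt target genes. In the embryonic kidney, NPCs express *Six2* and *Cited1* and either renew or respond to a canonical Wnt signal from the ureteric bud. Responding cells switch on *Lef1*, *Wnt4* and *Jag1*, aggregate, and turn into an epithelial renal vesicle, the precursor of a nephron. Low CHIR in NPEM is used to hold NPCs in the progenitor state, and high CHIR is used to start their differentiation.

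The 6 libraries held between 14345780 and 23542717 reads on genes, and mitochondrial genes took 1.424% to 2.665% of the counts. Of 8 markers of NPCs fixed for this check, all were detected in low CHIR, where their summed level was 17400 to 23490 normalized counts, and 6 fell in high CHIR, where the sum was 3753 to 7970. Markers of other cells that the depletion could have left were also read. Stromal markers (11 of 12 tested) summed to between 14160 and 22870 in low CHIR and between 5641 and 16550 in high CHIR, with *Foxd1* the 1 member called lower. The largest member was *Col1a1*, at 11020, 9302 and 6974 in low CHIR and 7980, 2293 and 4834 in high CHIR. Ureteric epithelial markers (7 of 12 tested) summed to 323 to 578 in low CHIR and 3567 to 6094 in high CHIR, and *Gata3* and *Epcam* were the 2 members called higher. In high CHIR replicates 1 and 2 these 2 genes made up most of the sum, and in replicate 3 *Krt5* did (2357 normalized counts, against 0 to 14.5 in the other 5 libraries). Of the other members, *Cdh1* was at 214, 256 and 77.8 in low CHIR and 791, 572 and 104 in high CHIR, *Wnt11* at 1.31, 22.8 and 1.2 and 42.6, 34.9 and 49.5, *Ret* was at 0 to 5.99 over the 6 libraries, and *Upk1b* had no read in low CHIR and at most 2.79 in high CHIR. The part of such cells in the results below was not tested. Endothelial markers (8 of 12 tested) summed to 376 to 696 in low CHIR and 755.1 to 1460 in high CHIR. *Tek* was called higher and *Cldn5*, *Plvap* and *Emcn* lower. In high CHIR replicates 1 and 2 *Tek* made up most of the sum (769, 586 and 13.1 in the 3 replicates). In replicate 3 *Flt1* did (93, 39.1 and 1336). *Pecam1*, *Cdh5*, *Kdr* and *Esam* were at or under 33.7 in all 6 libraries. Blood markers (6 of 12 tested) summed to 782 to 922 in low CHIR and 267 to 361 in high CHIR, with *Lyz2* lower. *Lyz2* made up most of that sum, at 595, 648 and 746 in low CHIR and 176, 262 and 226 in high CHIR.

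One library stood apart from its group. Among genes whose mean reached 50 normalized counts and whose other 2 replicates lay within 0.5 of each other on the log2 scale, high CHIR replicate 3 differed from replicates 1 and 2 by at least 1 in 1151 of 10416 genes (11.1%). The same count was 114 of 8341 genes (1.37%) for high CHIR replicate 1, 139 of 8823 (1.58%) for replicate 2, and 129 to 144 genes (1.16% to 1.33%) for the low CHIR libraries. The Pearson correlation of log2 values across genes was 0.973 between high CHIR replicates 1 and 2 and 0.921 and 0.910 between each of them and replicate 3. Between low CHIR libraries it was 0.968 to 0.975. High CHIR replicate 3 also had the most reads and the largest mitochondrial share of the 6 libraries, and the part of these in the difference was not tested. Counts over gene lists are therefore given with and without this library. The lists were chosen with earlier results of these data known, so their shares beside those of all genes are descriptive. Where the log2 fold change of a single gene is first given, that without replicate 3 follows wherever the pair differ by more than 1.5-fold.

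Among the 10 genes furthest above the other high CHIR replicates in replicate 3 were *Mixl1* and *T*. Both encode transcription factors of the primitive streak and early mesoderm. The filter mean of 50 counted replicate 3 itself, and all 10 genes reached it only through that library. Genes with no read in replicates 1 and 2 met the limit of 0.5 between them at 0. *Mixl1* was at 2.24, 1.4 and 7899 normalized counts in high CHIR replicates 1, 2 and 3 and at 18.4, 19.9 and 24 in the low CHIR libraries. *T* had 466 reads in high CHIR, all of them in replicate 3, against 1 read over the 3 low CHIR libraries. The ligand gene *Fgf20* was at 0, 0 and 519 in high CHIR, the synaptic organiser gene *Cbln1* at 0, 0 and 1472, and the hair keratin gene *Krt33a* at 0, 0 and 1967. None of these 3 had a read in replicates 1 and 2. *Fgf20* overlaps *Micu3* and *Cbln1* overlaps *Gm2694* on the opposite strand, and these libraries do not mark strand. *Tns4*, a focal adhesion gene, was at 0, 0 and 339. The remaining 4 of the 10 genes furthest above were the defensin genes *Defa3*, *Defa17*, *Defa20* and *Defa32*, each at 0 in replicates 1 and 2. They are near-identical copies, and the paper counted only reads that aligned uniquely.

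The 10 genes furthest below included 2 transcription factor genes of the early nephron. *Pax8*, a transcription factor needed for nephron formation, was at 7800.3, 7498 and 94.4 normalized counts in the high CHIR libraries and at 2499, 2682 and 1365 in low CHIR. *Lhx1*, a LIM-homeodomain factor of the renal vesicle, was at 5949, 6706 and 104 in high CHIR and 608, 743 and 297 in low CHIR. In both genes, replicates 1 and 2 lay above every low CHIR library and replicate 3 lay below every one. *Sim1*, a basic helix-loop-helix factor gene (56.5, 93 and 45.5 in low CHIR and 747, 865 and 10.3 in high CHIR), the retinoic acid degrading enzyme gene *Cyp26a1* (197, 141 and 1.87 in high CHIR), the protocadherin gene *Pcdh19* (517, 702 and 12.2) and the endothelial receptor gene *Tek* (769, 586 and 13.1) had the same shape among the high CHIR libraries. *Prdm16*, a chromatin regulator (225, 236 and 0.935), the oxytocin receptor gene *Oxtr* (748, 872 and 13.1), the nicotinic receptor subunit gene *Chrna6* (484, 547 and 8.41) and the erythropoietin receptor gene *Epor* (1139.5, 1477 and 23.4) completed the 10 genes furthest below.

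By gene group, the same library was higher in one set of Wnt targets and lower in mitosis genes and many epithelial genes. Of 20 tested Wnt feedback and direct target genes, 13 were at least 2-fold higher and 1 at least 2-fold lower in replicate 3 than in replicates 1 and 2, with a median difference of 2.17 on the log2 scale against 0.02 over all genes. All 25 mitosis genes were at least 2-fold lower, with a median of -2.00. Their summed level was 67250 and 69560 normalized counts in high CHIR replicates 1 and 2 and 17560 in replicate 3, against 78630 to 91930 in low CHIR. *Top2a*, the topoisomerase of dividing cells, was at 9256, 10495 and 2692 in high CHIR and 11803, 12149 and 14430.0 in low CHIR. *Mki67*, the gene of the Ki67 antigen, was at 1213, 1380.5 and 275 in high CHIR and 2639.9, 1357 and 2729 in low CHIR. Among 28 DNA replication genes, 9 were at least 2-fold lower in replicate 3. Over all 17411 genes tested, 1512 were at least 2-fold higher and 1716 at least 2-fold lower in that library. The cell cycle inhibitor genes *Cdkn1a* (4081, 2418 and 25493) and *Cdkn1c* (387, 408 and 4964) were far higher there. Epithelial junction and polarity genes were at least 2-fold lower in 16 of 33 and higher in 2, and nephron segment markers lower in 12 of 19 and higher in 4. Of 20 renal vesicle transcription factor genes, 10 were lower and 4 higher.

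**Figure D1:**
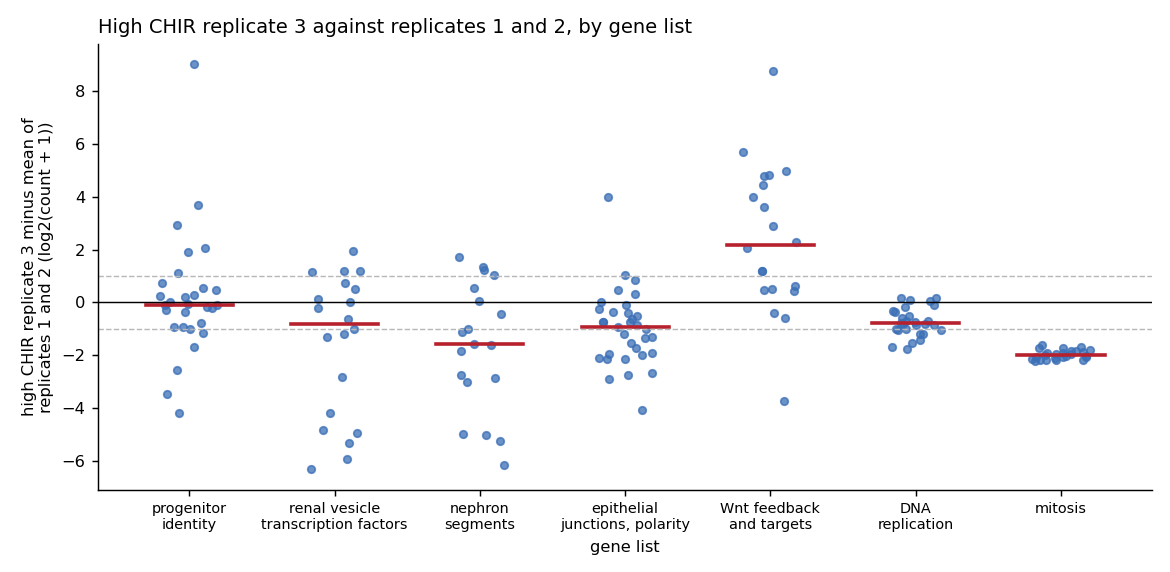
Each point is 1 gene of the list named on the horizontal axis and the vertical axis is the log2 difference between high CHIR replicate 3 and the mean of high CHIR replicates 1 and 2, with a line at the list median. Mitosis genes sit below 0 with a median of -2.00 and most Wnt feedback genes sit above it with a median of 2.17, while the median of all genes is 0.02.

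Against this background, 694 genes were higher in high CHIR (3.99% of the genes tested) and 628 were lower (3.61%), or 1322 in all (7.59%), by limma's moderated test on log2(normalized count + 1) with Benjamini-Hochberg adjustment. Called genes passed an adjusted p of 0.05 and changed by 1 or more on the log2 scale. Leaving out 1 library at a time gave 457 to 866 higher and 421 to 736 lower genes, the fewest without low CHIR replicate 3. Without high CHIR replicate 3, the same test called 866 genes higher (4.97%) and 736 lower (4.23%), or 1602 in all (9.20%). Of the genes called with all libraries, 601 higher (86.6%) and 543 lower (86.5%) were called without the library too, and none was called in the opposite direction. The 93 higher and 85 lower genes called only with the library included 83 and 73 in which replicate 3 was more extreme than replicates 1 and 2. Among the 265 higher genes called only without it, replicate 3 lay above the range of the low CHIR libraries in 77, within it in 102 and below it in 86. Among the 193 lower genes called only without it, replicate 3 lay below that range in 78, within it in 56 and above it in 59.

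All 694 higher and 628 lower genes had groups that did not overlap, as did 2573 (14.8%) and 2792 (16.0%) of all genes tested in the 2 directions. The median log2 fold change of all genes was 0.01, so changes are read against a centre near 0. For a single gene taken alone, the smallest two-sided p that exact permutation of 3 and 3 libraries allows is 0.1. The filter at 10 normalized counts let in *Podnl1* (mean 10.023) and *Zfp459* (10.029) and left out *Pcdh11x* (9.9934) and *H2-Aa* (9.9878). Of the genes tested, 219 passed the filter only through high CHIR replicate 3.

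**Figure D2:**
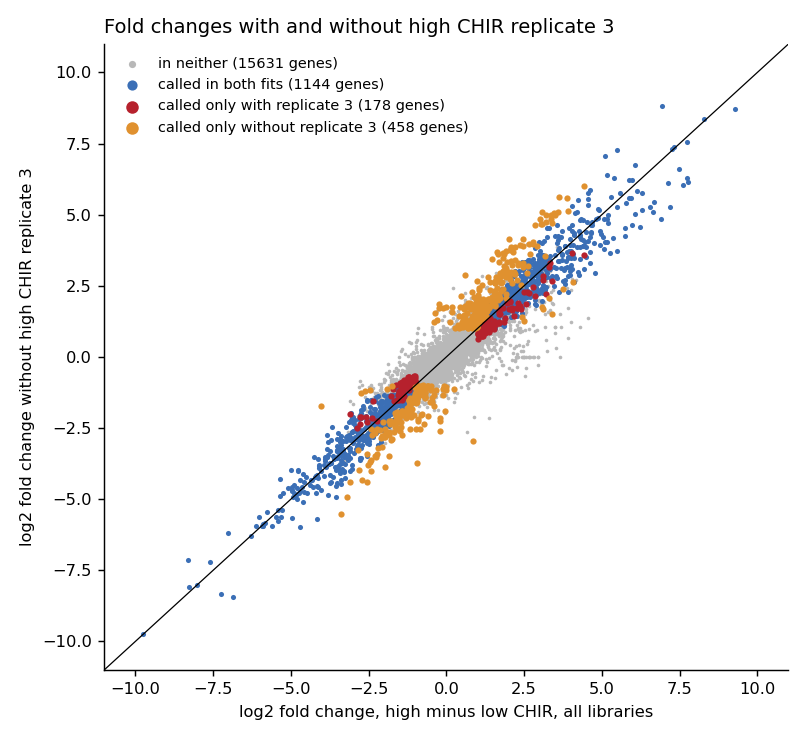
Each point is 1 of the 17411 genes, with the log2 fold change of high over low CHIR from all libraries on the horizontal axis and without high CHIR replicate 3 on the vertical axis, coloured by where the gene was called. The 601 higher and 543 lower genes called both ways have the same sign on both axes. Some of them lie well off the diagonal, such as *Tek* (6.95 and 8.81) and *Prss56* (6.91 and 4.84). Genes such as *Lhx1* and *Pax8* lie well above the diagonal.

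Most genes of progenitor identity fell, with or without replicate 3. Of 29 genes of progenitor identity, 18 fell and none rose, against 3.61% and 3.99% of all genes, with a median log2 fold change of -2.47 against 0.01 over all genes. Without replicate 3, 19 fell and 1 rose, and the median was -2.11. Since the list was chosen with earlier results of these data known, these shares are no test of enrichment. By role, 8 of 15 transcription factors and coregulators and 10 of 14 signals, receptors and other markers fell. *Osr1* (chr12:9570116-9581500, GRCm38), a factor of the earliest renal mesoderm, was at 677, 667 and 1387 normalized counts in the low CHIR libraries and had no read in any high CHIR library, which put it at least 791-fold lower when 3 reads over the group are taken as the floor. *Six2* (chr17:85684277-85688274), which maintains the progenitor pool, was at 2716, 2979 and 3072 in low CHIR and 60.5, 79.6 and 65.4 in high CHIR (log2 fold change -5.40 ± 0.15, adjusted p = 3.18e-08). Its coactivator gene *Eya1* was at 3317, 3478 and 3904 and 84, 86.5 and 103 (-5.28 ± 0.14, adjusted p = 3.14e-08). Each of these genes was low in all 3 high CHIR libraries, replicate 3 included.

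*Cited1*, a coregulator gene of the least committed progenitors, was at 1639, 2129.6 and 4562 in low CHIR and 77.3, 103 and 102 in high CHIR (-4.74 ± 0.32, adjusted p = 1.93e-05). Low CHIR replicate 3 held the highest level of *Cited1* and of *Osr1*. The homeobox genes *Meox2* (1180.0, 1494 and 2163 in low CHIR, 4.48, 20.9 and 0 in high CHIR) and *Meox1* (39.4, 71.2 and 52.7 and 1.12, 1.4 and 0) fell by 8.31 and 4.97 on the log2 scale, and *Meox2* fell by 7.16 without replicate 3, with 2 *Meox1* reads left over the 3 high CHIR libraries. *Wt1*, the Wilms tumour gene, fell from 1536, 1167 and 1317 to 99.7, 89.3 and 49.5 (-4.11 ± 0.25, adjusted p = 9.64e-06), and *Eya4* from 817, 689 and 914 to 316, 254 and 233. Not every progenitor factor moved. *Sall1*, a zinc finger factor of the whole metanephric mesenchyme, was at 4771, 4571 and 5538 in low CHIR and 6131, 6844 and 3197 in high CHIR (0.05 ± 0.25, adjusted p = 0.931), and the groups overlapped only through replicate 3. *Six4* (0.38 ± 0.17, adjusted p = 0.205) and *Cited2* (-0.10 ± 0.17, adjusted p = 0.758) were not called either, and *Hoxa11* had a log2 fold change of -0.72, short of 1.

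Among the progenitor signals and surface genes, *Bmper*, which binds BMP ligands outside the cell, was at 4278, 5317 and 7229 in low CHIR and 128, 90.7 and 451 in high CHIR (-4.97 ± 0.48, adjusted p = 0.00017, and -5.66 without replicate 3). The RNA-binding protein gene *Elavl4* (-3.39 ± 0.31, adjusted p = 0.000135), the membrane protein gene *Tmem100* (-3.11 ± 0.27, adjusted p = 0.000101) and *Rspo1*, which encodes a Wnt-enhancing R-spondin (-3.44 ± 0.46, adjusted p = 0.00115, and -4.07 without replicate 3), fell as well. *Itga8*, the integrin subunit through which the mesenchyme supports ureteric growth, fell from 2619, 2922 and 3558 to 1066, 674 and 142 (-2.68 ± 0.58, adjusted p = 0.0146, and -1.83 without replicate 3), with replicate 3 the lowest. *Robo2*, a receptor gene for Slit guidance cues, showed the reverse influence of that library. Its levels were 3129, 2960.4 and 4715 in low CHIR and 273, 268 and 3467 in high CHIR, which gave -2.47 ± 0.79, adjusted p = 0.0743 with replicate 3 and -3.70 ± 0.19, adjusted p = 3.71e-06 without it. *Gdnf*, the growth factor gene that draws out the ureteric bud, had a log2 fold change of -1.02 ± 0.32, adjusted p = 0.0743 and was called in neither fit. *Lypd1* was the 1 member that rose once replicate 3 was left out (3.34 ± 0.96, adjusted p = 0.0488).

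**Figure D3:**
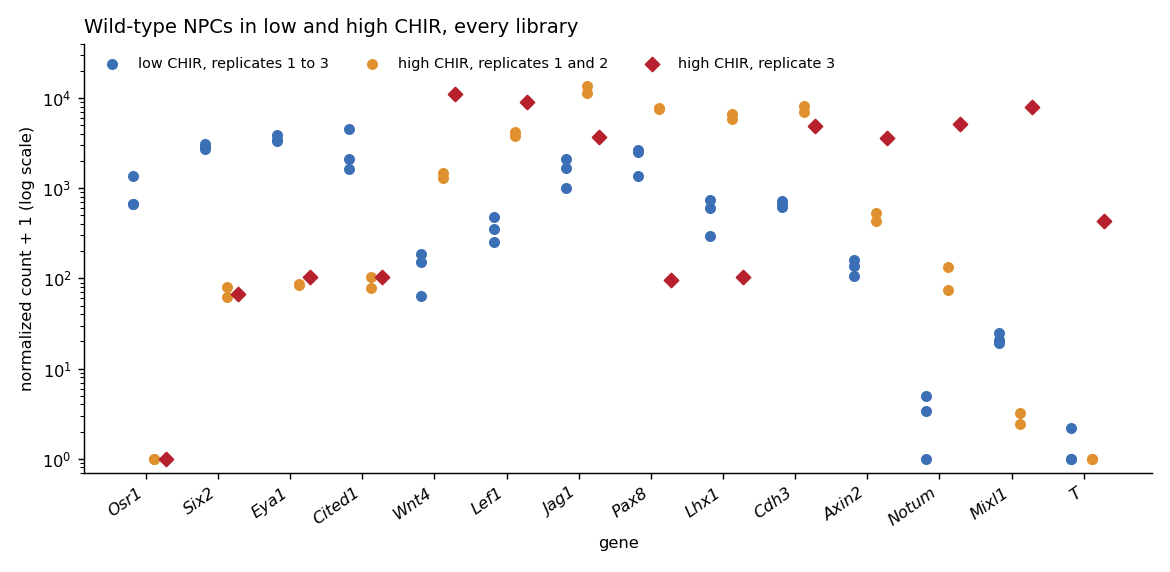
Normalized counts of selected genes in each of the 3 low CHIR and 3 high CHIR libraries on a log axis (normalized count + 1), 1 point per library, with high CHIR replicate 3 drawn apart. *Osr1* and *Six2* are low in all 3 high CHIR libraries, whereas *Lhx1* and *Pax8* are high in replicates 1 and 2 and below the low CHIR libraries in replicate 3.

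Genes of induction were called mostly in the other direction, and more of their calls changed with the library. Of 40 tested genes of induction and the renal vesicle, 16 rose and 5 fell with all libraries, and 24 rose and 4 fell without replicate 3, with medians of 1.05 and 1.62. Over all genes, 3.99% rose and 3.61% fell, and 4.97% and 4.23% did without replicate 3. The signal genes accounted for 6 of the rises in both fits. *Wnt4* (chr4:137277489-137299726), the Wnt ligand that drives epithelial conversion, was at 188, 151 and 63.5 in low CHIR and 1315, 1473 and 11108 in high CHIR (4.50 ± 0.74, adjusted p = 0.00358, and 3.50 without replicate 3), so that every high CHIR library lay above every low one and replicate 3 lay far above the rest. *Jag1*, a Notch ligand gene, was at 2092, 1687 and 996 and 11451, 13731 and 3709.7 (2.46 ± 0.50, adjusted p = 0.0109, and 3.04 without replicate 3), with replicate 3 the lowest of the high CHIR libraries. *Fgf8*, a survival factor gene of nascent nephrons, was at 32.9, 23.7 and 4.79 and 150.1, 93.5 and 248 (3.17 ± 0.68, adjusted p = 0.0143). *Vegfc*, a lymphatic growth factor gene, rose by 5.50 on the log2 scale, *Bmp7* by 3.58 and *Tgfa*, an EGF receptor ligand gene, by 2.28. *Fgf9*, a progenitor survival signal, fell by 2.10 on the log2 scale (2411, 3281 and 2389 to 584, 839 and 483). *Bmp2* (409, 353 and 259 and 326, 382 and 168) was not called in either fit.

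The transcription factors of the renal vesicle split by their level in replicate 3. *Lef1* (chr3:131110471-131224356), a nuclear partner of β-catenin, was at 356, 483 and 252 in low CHIR and 3810.5, 4197 and 9125 in high CHIR (3.90 ± 0.50, adjusted p = 0.000882), and its relative *Tcf7* at 134, 161 and 144 and 641, 687 and 1524 (2.58 ± 0.32, adjusted p = 0.000733). *Cux2* (3.06 ± 0.46, adjusted p = 0.00238, and 2.42 without replicate 3), *Ovol1* (2.49 ± 0.46, adjusted p = 0.00663), *Dach1* (1.56 ± 0.34, adjusted p = 0.015) and *Bhlhe41* (2.28 ± 0.35, adjusted p = 0.00277) also rose in both fits. These 6 genes were above the low CHIR range in all 3 high CHIR libraries. A further 8 factors rose only when replicate 3 was left out, which brought the count from 6 to 14 of 20. They were *Lhx1* (3.62 ± 0.43, adjusted p = 0.000519), *Pax8* (1.87 ± 0.30, adjusted p = 0.003), *Emx2* (4.98 ± 0.44, adjusted p = 9.88e-05), *Mecom* (3.47 ± 0.43, adjusted p = 0.000613), *Bach2* (2.44 ± 0.26, adjusted p = 0.000257), *Pax2* (1.41 ± 0.23, adjusted p = 0.00278), *Sox11* (1.30 ± 0.21, adjusted p = 0.00274) and *Uncx* (1.21 ± 0.30, adjusted p = 0.0243). With replicate 3 included, the standard error of *Lhx1* was 1.29 and that of *Pax8* 1.35, and their log2 fold changes were 1.65 and -0.24.

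*Emx2*, a homeobox gene needed for urogenital development, shows the size of this split. It was at 147, 154 and 68.3 normalized counts in low CHIR and at 3427, 3939 and 91.6 in high CHIR. Replicate 3 lay inside the low CHIR range and the other 2 high CHIR libraries lay far above it. *Mecom* (473, 503 and 249 and 4078, 4622 and 139) and *Bach2* (587, 535 and 435 and 2238, 3487 and 151) were split in the same way, with replicate 3 below every low CHIR library. *Emx2* overlaps *Emx2os* on the opposite strand, and without strand a read in sequence that both share cannot be assigned to either. *Hes1*, a transcriptional repressor, was the 1 factor that fell (789.7, 848 and 977 to 216, 181 and 170.1, -2.20 ± 0.23, adjusted p = 0.000243). *Id2* had a log2 fold change of -0.88 ± 0.18, adjusted p = 0.0123, which did not reach 1, and *Sox4* one of -0.20 ± 0.14, adjusted p = 0.426. Among 10 adhesion and other genes of the vesicle, *Npy* (3.56 ± 0.75, adjusted p = 0.0129, and 4.64 without replicate 3), *Greb1* (2.49 ± 0.25, adjusted p = 0.000199), *Bmpr1b* (2.36 ± 0.45, adjusted p = 0.00771, and 1.76 without replicate 3) and the cadherin gene *Cdh4* (1.57 ± 0.26, adjusted p = 0.00349) rose, and *Pla2g7* and the Wnt-binding *Sfrp2* fell. *Cdh6*, a cadherin gene of the early proximal nephron, had a log2 fold change of -0.85 ± 0.41, adjusted p = 0.239, and its levels were 1214, 584 and 571 in low CHIR and 612, 364 and 312 in high CHIR.

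Genes that canonical Wnt signaling is known to switch on as feedback or direct targets were called in 1 direction. Of 20 tested, 11 rose and none fell with all libraries (55%, against 3.99% of all genes called higher) and 12 rose without replicate 3 (60%, against 4.97%), with medians of 2.57 and 1.63. Among the secreted and intracellular inhibitors, *Axin2*, the scaffold of the destruction complex, was at 137, 105 and 159 in low CHIR and 538, 433 and 3638 in high CHIR (2.83 ± 0.65, adjusted p = 0.0204, and 1.86 without replicate 3). *Notum*, whose enzyme strips the lipid from Wnt ligands, was at 3.94, 0 and 2.4 and 133, 72.6 and 5139.8 (7.18 ± 1.37, adjusted p = 0.00789, and 5.28 without replicate 3). *Wif1*, which encodes a Wnt-binding protein, was at 76.2, 68.4 and 77.8 and 546, 388 and 10159 (4.11 ± 1.01, adjusted p = 0.0276, and 2.62 without replicate 3), and *Apcdd1* at 42, 38 and 28.7 and 322, 100.5 and 5038 (3.90 ± 1.10, adjusted p = 0.0494, and 2.30 without replicate 3). All high CHIR libraries lay above the low CHIR range in these genes, but replicate 3 lay several-fold above the other 2. Summed over 10 inhibitor and receptor turnover genes, the level was 3412 to 5359 in low CHIR, 10980 and 10670 in high CHIR replicates 1 and 2, and 40720 in replicate 3.

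Other genes of the list were not called in 1 or both fits. *Nkd1*, an inhibitor acting on Dishevelled, was at 147, 133 and 137 in low CHIR and 344, 267 and 9479.5 in high CHIR, and was called neither with replicate 3 (2.77 ± 1.09, adjusted p = 0.145) nor without it (1.12 ± 0.42, adjusted p = 0.129). *Rnf43*, a ubiquitin ligase gene that removes Frizzled receptors, was at 18.4, 18 and 13.2 and 65, 50.2 and 914 and was called only without replicate 3 (1.74 ± 0.42, adjusted p = 0.0237), while the related *Znrf3* rose in both fits (1.19 ± 0.24, adjusted p = 0.0106). *Dkk1*, a secreted LRP inhibitor gene, went the other way in that library (1537, 2957 and 1121 in low CHIR, 4570.2, 5262 and 369 in high CHIR) and was called in neither fit. *Msx1* (5.26, 9.49 and 9.58 and 978, 403 and 18058, 7.76 ± 1.13, adjusted p = 0.00185, and 6.15 without replicate 3) and *Msx2* (193, 204 and 139 and 589, 367 and 1952, 2.08 ± 0.52, adjusted p = 0.0289, and 1.40 without replicate 3), homeobox targets of BMP and Wnt signals, rose. *Myc* (0.46 ± 0.20, adjusted p = 0.183), *Lgr5* (0.47 ± 0.29, adjusted p = 0.367) and *Ccnd1* (1.01 ± 0.35, adjusted p = 0.101), Wnt targets in other epithelia, were not called.

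*Sp5*, a zinc finger gene that Wnt signaling induces in many tissues, was at 0, 6.65 and 1.2 in low CHIR and 141, 87.9 and 1389 in high CHIR (6.67 ± 1.04, adjusted p = 0.00281), and without replicate 3 its change was 5.46 ± 0.78, adjusted p = 0.00141. Its promoter is shown because it is the 1 called gene of the feedback list with a match to the Tcf/Lef core motif CTTTGAT, which reads as ATCAAAG on the other strand, in the 250 bases before its start. The sequence is that of RefSeq on GRCm38.p6, chr2:70474673-70474922, plus strand, with the match in capitals.
Sp5: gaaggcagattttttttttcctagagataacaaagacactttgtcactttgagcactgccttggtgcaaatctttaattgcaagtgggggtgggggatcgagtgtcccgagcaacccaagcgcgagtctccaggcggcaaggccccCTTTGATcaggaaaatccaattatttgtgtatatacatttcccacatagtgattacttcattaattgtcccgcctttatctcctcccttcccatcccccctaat
The motif was found in 2 of 13 feedback genes with a promoter in the RefSeq table, *Sp5* and *Tnfrsf19*. It was found in 14 of 505 genes that rose (2.77%), in 5 of 434 that fell (1.15%) and in 294 of all 10815 tested genes with a promoter in the table (2.72%). A match describes letters in this window and is not a binding site.

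Genes of the Wnt machinery itself were called in both directions. Of 46 tested components, 3 rose and 7 fell (21.7%, against 7.59% of all genes), and 4 rose and 9 fell without replicate 3 (28.3%, against 9.20%), with a median log2 fold change of -0.06. Among 18 genes for β-catenin, the destruction complex and nuclear partners, none rose and 2 fell in either fit (11.1%). *Ctnnb1*, the β-catenin gene, was at 3770.0, 4069 and 4080.4 in low CHIR and 3318, 2928 and 4686 in high CHIR (-0.15 ± 0.18, adjusted p = 0.661), and *Gsk3b*, the gene of the kinase that CHIR inhibits, at 9447, 8458 and 9230.3 and 7511, 8418 and 8536 (-0.15 ± 0.16, adjusted p = 0.624). The groups overlapped in both genes. *Tcf7l1*, a mostly repressive Tcf factor, fell from 1403, 1557 and 1613 to 272, 198 and 174 (-2.85 ± 0.17, adjusted p = 9.64e-06), while *Tcf7l2* was not called (-0.43 ± 0.25, adjusted p = 0.33). The other member that fell was *Bcl9l*, a β-catenin cofactor gene (-1.15 ± 0.18, adjusted p = 0.00261). Among receptors and secreted inhibitors, *Fzd6* (4.67 ± 0.40, adjusted p = 8.57e-05) and *Fzd10* (6.53 ± 0.93, adjusted p = 0.00168, and 5.28 without replicate 3) rose, whereas *Fzd2* (-1.52 ± 0.13, adjusted p = 8.57e-05), *Fzd7* (-1.66 ± 0.18, adjusted p = 0.000315) and *Fzd4* (-2.55 ± 0.69, adjusted p = 0.0414, and -1.52 without replicate 3) fell, so that the Frizzled genes did not move together. *Frzb*, a soluble Frizzled-like inhibitor gene, fell from 2232, 2056 and 2401 to 177, 53 and 124.

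Of 9 tested Wnt ligand genes, *Wnt7a* was the 1 that rose. It had no read in low CHIR and was at 28, 39.1 and 863 in high CHIR, at least 269-fold higher when 3 reads over the group are taken as the floor, and at least 29.1-fold higher without replicate 3. The ligand genes summed to 355 to 425 normalized counts in low CHIR, to 560.2 and 433 in high CHIR replicates 1 and 2 and to 6002 in replicate 3, and 7 of the 9 were at least 2-fold higher in that library than in the other 2. *Wnt5a*, a ligand known for non-canonical signaling, was at 142, 145 and 170.1 in low CHIR and 119, 58.6 and 2977 in high CHIR and was called in neither fit. *Wnt11*, a ligand gene of ureteric tips, had a log2 fold change of 3.12 ± 0.91, adjusted p = 0.0547.

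In the Notch, Fgf and BMP pathways members were called in both directions, and the list medians lay between -0.37 and 0.18. Of 19 Notch genes, 2 rose and 4 fell (31.6%, against 7.59% of all genes), and 2 rose and 3 fell without replicate 3 (26.3%, against 9.20%). *Notch1* rose (151, 116 and 126 to 389, 322 and 236, 1.24 ± 0.26, adjusted p = 0.012) with its ligand gene *Jag1*, while *Notch2*, the receptor gene needed for proximal fates, fell (5188, 3977 and 5551 to 1841, 1769.9 and 1499, -1.52 ± 0.22, adjusted p = 0.00181), as did the Fringe gene *Lfng* and the ligand gene *Dll1*. *Dll1* was no longer called without replicate 3. Of 26 Fgf genes, 3 rose and 5 fell (30.8%), and 2 rose and 5 fell without replicate 3 (26.9%). *Fgf1* (-4.76 ± 0.61, adjusted p = 0.000878, and -4.00 without replicate 3) and *Fgfr3* fell, and so did *Etv1*, an Ets factor gene under Fgf control (2026, 2324 and 2458 to 179, 62.8 and 458, -3.70 ± 0.53, adjusted p = 0.00177, and -4.40 without replicate 3). The feedback inhibitor gene *Spred3* rose (1.88 ± 0.26, adjusted p = 0.00128) and *Dusp5* fell (-2.40 ± 0.28, adjusted p = 0.000471). *Spry2* (-0.39 ± 0.32, adjusted p = 0.503) and *Etv4* (0.02 ± 0.30, adjusted p = 0.978), used as readouts of Fgf receptor activity, were not called.

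Of 33 BMP and TGF-β genes, 7 rose and 2 fell (27.3%), and the counts were the same without replicate 3. *Bmp7*, which supports NPC survival and proliferation, was at 102, 209 and 92.2 in low CHIR and 1443, 1978 and 1210.4 in high CHIR (3.58 ± 0.33, adjusted p = 0.00014). *Bambi*, a decoy receptor gene, was at 382, 326 and 281 and 3178, 2869.8 and 2133 (3.04 ± 0.29, adjusted p = 0.000153), and the inhibitor of differentiation gene *Id4* at 407, 374 and 250.3 and 2949, 3569 and 475 (2.34 ± 0.62, adjusted p = 0.0381, and 3.27 without replicate 3). *Bmpr1b*, *Acvr2b*, *Fst* and *Inhbb* also rose, the last from 3 reads over the low CHIR libraries to 117 reads over the high CHIR libraries, a ratio of 38.6 with a 95% counting interval of 12.9 to 190. *Bmp3* fell (-3.34 ± 0.59, adjusted p = 0.00536), with *Bmper*. *Bmp4* was at 343, 191 and 305 and 363, 212 and 5523, which is a rise in replicate 3 alone, and was not called.

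Of 13 tested retinoic acid genes, 4 rose and none fell with all libraries (30.8%, against 7.59% of all genes), with a median of 0.03. Without replicate 3, 4 rose and 2 fell (46.2%, against 9.20%), with a median of -0.40. The genes that fell there were the receptor gene *Rarb* (-2.28 ± 0.63, adjusted p = 0.0418) and the carrier protein gene *Crabp1* (-1.12 ± 0.32, adjusted p = 0.0474), which was at 198, 272 and 209.6 in low CHIR and 145, 72.6 and 1825 in high CHIR. *Aldh1a3*, an enzyme gene of retinoic acid synthesis, was at 246, 159.5 and 229 in low CHIR and 19410.0, 16218 and 1321 in high CHIR (5.16 ± 0.82, adjusted p = 0.003, and 6.41 without replicate 3), and all high CHIR libraries lay above the low ones although replicate 3 lay far below the other 2. *Cyp26a1* had 1 read in low CHIR and was at 197, 141 and 1.87 in high CHIR, a ratio of 276 with a 95% counting interval of 49.1 to 10900, and it was called in both fits. *Crabp2*, a carrier protein gene, was at 216, 403 and 323 and 1871, 2119 and 2317 (2.78 ± 0.27, adjusted p = 0.000164) with little difference among replicates. *Aldh1a1* rose from 1 read over the low CHIR libraries to 81 reads, a ratio of 80.1 with an interval of 14 to 3200. *Stra6*, the retinol uptake receptor gene, was at 326, 106 and 13919 in high CHIR against 113, 104 and 242 in low CHIR and was not called.

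**Figure D4:**
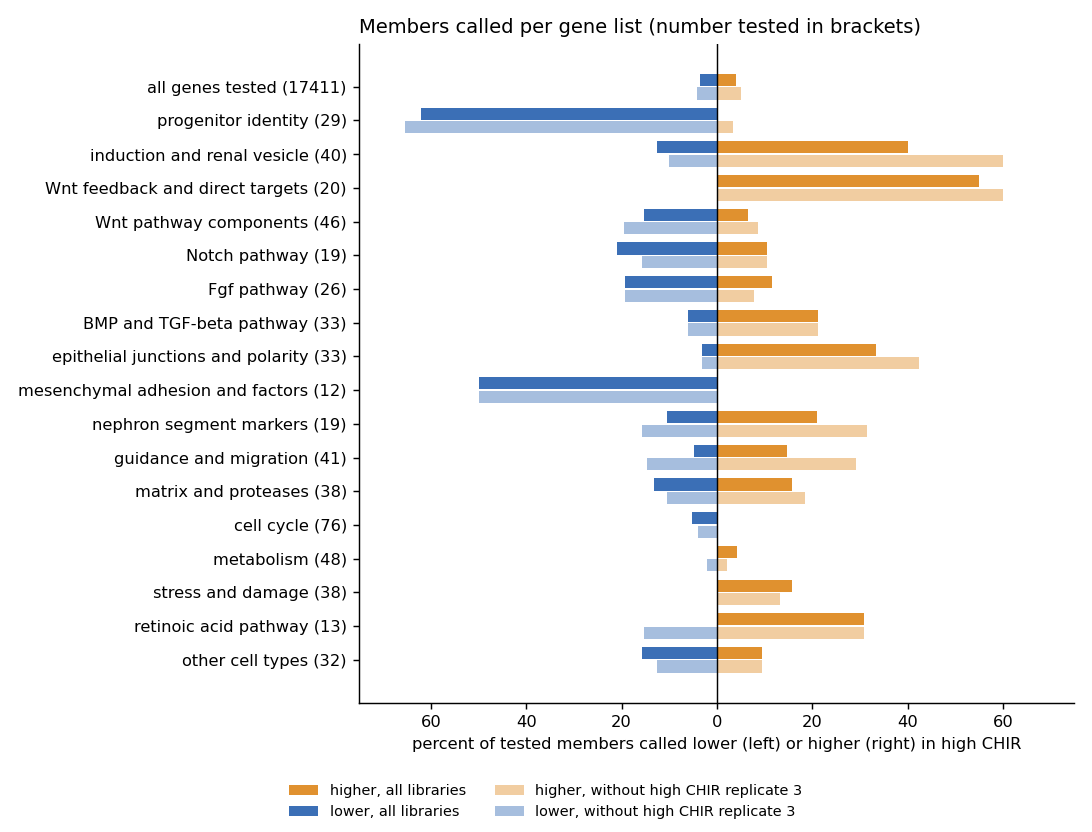
For each gene list, bars show the percentage of tested members called higher (to the right) and lower (to the left) in high CHIR. Bars are given with all libraries and without high CHIR replicate 3, beside the same for all genes. The lists were chosen with earlier results of these data known. Progenitor identity stands out on the lower side (18 of 29) and Wnt feedback on the higher side (11 of 20), and renal vesicle genes go from 16 to 24 of 40 when the library is left out.

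More epithelial genes were called higher than lower, and mesenchymal genes were called only lower. Of 33 tested genes of epithelial junctions and polarity, 11 rose and 1 fell with all libraries (36.4%, against 7.59% of all genes), and 14 rose and 1 fell without replicate 3 (45.5%, against 9.20%), with medians of 1.15 and 1.43. *Cdh3*, the P-cadherin gene, was at 620.2, 728 and 695 in low CHIR and 8218, 7087 and 4923 in high CHIR (3.28 ± 0.19, adjusted p = 8.95e-06). The tight junction genes *Cldn6* (836, 825 and 358 and 8877, 7729 and 1876, 3.01 ± 0.57, adjusted p = 0.00766, and 3.72 without replicate 3), *Cldn7* (838, 782 and 338 and 8639.5, 8537 and 1136, 2.85 ± 0.71, adjusted p = 0.0285, and 3.83 without replicate 3) and *Ocln* (55.2, 65.5 and 55.1 and 585, 561 and 283, 2.93 ± 0.38, adjusted p = 0.000885) rose, together with *Marveld2*. *Crb3*, an apical polarity gene, was at 124, 73.1 and 47.9 and 844, 825 and 214 (2.79 ± 0.53, adjusted p = 0.00747, and 3.44 without replicate 3), and *Patj* and *Pard6b*, its partners in polarity complexes, rose by 1.35 and 1.25. The simple keratin genes *Krt18* (1.95 ± 0.35, adjusted p = 0.00606) and *Krt19* (1.52 ± 0.29, adjusted p = 0.00798) rose too. Of the cadherin and junction genes, 11 of 18 were at least 2-fold lower in replicate 3 than in the other 2 high CHIR libraries. Over these 18 genes the summed level was 5091 to 7682 in low CHIR, 36380 and 31800 in high CHIR replicates 1 and 2 and 13300 in replicate 3. *Cdh1*, the E-cadherin gene, was at 214, 256 and 77.8 and 791, 572 and 104 and was called in neither fit. The member that fell was *Cldn5*, a claudin of endothelium, with 58 reads in low CHIR and none in high CHIR.

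Of 12 mesenchymal adhesion genes and factors, 6 fell and none rose in either fit (50%, against 3.61% and 4.23% of all genes called lower), with medians of -1.07 and -1.15. *Snai2*, a repressor of epithelial genes, was at 2378, 2812 and 3712 in low CHIR and 271, 128 and 449 in high CHIR (-3.54 ± 0.37, adjusted p = 0.000263). *Cdh11*, a mesenchymal cadherin gene, was at 6779, 6904 and 7167 and 1130.5, 578 and 1816 (-2.71 ± 0.34, adjusted p = 0.000847). *Vim*, the vimentin gene, was at 20538, 32127 and 34486 and 7999, 6474 and 5690.3 (-2.09 ± 0.22, adjusted p = 0.000245). *Snai1* (-1.50 ± 0.37, adjusted p = 0.0273), *Zeb1* (-2.32 ± 0.37, adjusted p = 0.00323) and *Zeb2* (-1.31 ± 0.32, adjusted p = 0.0281) fell as well. In all 6 genes every high CHIR library lay below every low CHIR library. The stromal markers named above, which mesenchymal cells share in part, were lower in sum in 2 of the 3 high CHIR libraries, and their part in the fall was not tested.

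Of 19 tested markers of later nephron segments, 4 rose and 2 fell (31.6%, against 7.59% of all genes), and 6 rose and 3 fell without replicate 3 (47.4%, against 9.20%). *Gata3*, a factor of the distal nephron and collecting duct, was at 61.8, 61.7 and 37.1 in low CHIR and 4283, 4098 and 623 in high CHIR (5.39 ± 0.65, adjusted p = 0.000635, and 6.30 without replicate 3). *Sim1*, *Tfap2a* (435, 657 and 15.9 in high CHIR) and *Pou3f3* (878, 1348 and 149), factors of the loop and distal tubule, rose only without replicate 3. The 6 loop and distal genes summed to 233.5 to 648 in low CHIR, to 6455 and 7092 in high CHIR replicates 1 and 2 and to 983 in replicate 3. *Tcf21* and *Foxc2*, which podocytes share with their mesenchymal precursors, fell. *Tcf21* was at 7435, 8634 and 8499.7 and 598, 442 and 63.6 (-4.99 ± 0.64, adjusted p = 0.000891, and -3.99 without replicate 3). *Nphs1*, the nephrin gene of mature podocytes, was at 63.1, 68.4 and 69.5 and 48.2, 90.7 and 68.2, and was not called.

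The share of cell cycle genes called was below that of all genes, while their levels were mostly lower in high CHIR. Of 76 tested, none rose and 4 fell (5.26%, against 7.59%), and 3 fell without replicate 3 (3.95%, against 9.20%). The median log2 fold change was -0.77 with all libraries and -0.34 without replicate 3. The 28 DNA replication genes summed to 86100 to 95700 in low CHIR and to 65520, 71150 and 44370 in high CHIR. The sum of the mitosis genes, given above, was also lower in every high CHIR library than in every low CHIR library. Of the 25 mitosis genes none was called in either fit. *Mycn*, a Myc family gene of proliferating progenitors, was at 2137, 2127 and 1940.2 in low CHIR and 398, 412 and 754 in high CHIR (-2.05 ± 0.23, adjusted p = 0.000378). *Cdkn2c* (-2.94 ± 0.53, adjusted p = 0.00617) and *Mxd3* (-1.90 ± 0.36, adjusted p = 0.00787) fell too, and *Cdc6*, a replication licensing gene, fell with all libraries (-1.09 ± 0.31, adjusted p = 0.0499) and was not called without replicate 3. *Ccnd2*, a G1 cyclin gene, was at 9837, 9990.1 and 8222 and 15359, 12091 and 40103 (1.07 ± 0.38, adjusted p = 0.109), and *Cdkn1a*, the p21 gene, at 2842, 1461 and 1172 and 4081, 2418 and 25493 (1.90 ± 0.71, adjusted p = 0.127, and 0.89 without replicate 3). Neither was called.

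Metabolic genes were called at a share below that of all genes. Of 48 genes of glycolysis, hypoxia and cholesterol synthesis, 2 rose (4.17%, against 7.59% of all genes), *Slc2a3* (2.23 ± 0.47, adjusted p = 0.0135) and *Aldoc* (1.87 ± 0.50, adjusted p = 0.0406, and 1.23 without replicate 3), and no cholesterol synthesis gene was called. Without replicate 3, *Aldoc* was not called, *Slc2a3* rose and *Car9*, a hypoxia target gene, fell (-2.86 ± 0.62, adjusted p = 0.0139). Of 38 stress and damage genes, 6 rose (15.8%, against 3.99% of all genes called higher) and 5 rose without replicate 3 (13.2%, against 4.97%). The 6 were the AP-1 genes *Jun* (1.62 ± 0.35, adjusted p = 0.0143), *Jund* (1.09 ± 0.28, adjusted p = 0.0351) and *Fosl2* (1.84 ± 0.34, adjusted p = 0.00621), the immediate early genes *Ier3* and *Atf3*, and the p53 target *Perp* (1.65 ± 0.33, adjusted p = 0.00937). *Ier3* and *Atf3* were not called without replicate 3.

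Guidance and matrix genes were called in both directions. Of 41 guidance and migration genes, 6 rose and 2 fell with all libraries (19.5%, against 7.59% of all genes) and 12 rose and 6 fell without replicate 3 (43.9%, against 9.20%). *Sema6a* (397, 393 and 229.9 and 3374, 3286 and 1829, 3.04 ± 0.57, adjusted p = 0.00713), the Eph receptor gene *Epha4* (552, 502 and 338 and 2886, 3889 and 1657, 2.54 ± 0.31, adjusted p = 0.000706) and *Epha1* (2.69 ± 0.49, adjusted p = 0.00617) rose, as did the ephrin gene *Efnb2* (1.96 ± 0.40, adjusted p = 0.0116). *Robo1* (1.92 ± 0.22, adjusted p = 0.000468) and its ligand gene *Slit2* (1.39 ± 0.19, adjusted p = 0.00146) rose, while *Robo2* had the values given above. Of 38 matrix and protease genes, 6 rose and 5 fell (28.9%, against 7.59% of all genes), and 7 rose and 4 fell without replicate 3 (28.9%, against 9.20%). *Nid2*, a basement membrane linker gene, was at 5745, 5455 and 6975 and 396, 402 and 269 (-4.10 ± 0.29, adjusted p = 2.79e-05), and *Frem1* fell (-3.49 ± 0.39, adjusted p = 0.000382) while its relative *Frem2* rose (2.43 ± 0.35, adjusted p = 0.00181). The collagenase gene *Mmp2* fell (9989, 9495 and 10032 to 3747, 2480.4 and 2407, -1.80 ± 0.20, adjusted p = 0.000427), and *Adamts9* (2.71 ± 0.23, adjusted p = 7.99e-05) and *Col18a1* (2.98 ± 0.47, adjusted p = 0.00297) rose.

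The 15 genes raised most by the fold change over all libraries, among genes called in both fits, differed in their level in replicate 3. Ranked by the fold change without replicate 3, 10 of these genes stayed among the 15, and *Cyp26a1* (7.07), *Gap43* (6.75), *Aldh1a3* (6.41), *Gata3* (6.30) and *Sv2b* (6.21) took the place of *Notum* (5.28), *Prss56* (4.84), *Sp5* (5.46), *Wnt7a* (5.09) and *Evx1os* (6.04). *Krt23*, a keratin gene, was at 9.2, 4.75 and 3.59 in low CHIR and 2453, 2948 and 9067 in high CHIR (9.29 ± 0.56, adjusted p = 9.64e-06), and *Krt39* at 0, 1.9 and 0 and 542, 405 and 405, a ratio of 597 in which the 2 low CHIR reads give a 95% counting interval of 165 to 4930. *Cthrc1*, a secreted glycoprotein gene tied to Wnt signaling, was at 84.1, 60.8 and 27.5 and 9992, 7739.9 and 7937 (7.32 ± 0.41, adjusted p = 7.37e-06). *Cthrc1*, *Krt39*, *Tmem59l* (128, 271 and 284 in high CHIR, no read in low CHIR) and the potassium channel gene *Kcnh8* (184, 212 and 172) were of similar size in the 3 high CHIR libraries. In a larger set, replicate 3 lay several-fold above the other 2, as in *Msx1*, *Notum*, *Sp5*, *Wnt7a*, *Sptlc3* (123, 75.4 and 1931), *Bcl11a* (184, 209 and 1252), *Mab21l1* (180.4, 144 and 1396) and *Prss56* (175, 97.7 and 9716). *Tek* was the reverse case (769, 586 and 13.1). *Evx1os*, with no read in low CHIR and 79.5, 53 and 1662 in high CHIR, is antisense to *Evx1*. Without strand, a read in sequence that this pair shares cannot be assigned to either gene. *Mab21l1* lies inside *Nbea* on the opposite strand.

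The 15 genes lowered most, of which 13 stayed when ranked without replicate 3, were, beside *Osr1*, *Meox2* and *Six2*, genes of secreted proteins, receptors and enzymes among others. *Il33*, an alarmin cytokine gene, was at 3389, 6373 and 12451 in low CHIR and 118, 64.2 and 15 in high CHIR (-7.02 ± 0.65, adjusted p = 0.000135, and -6.20 without replicate 3). *Hpgd*, the prostaglandin degrading enzyme gene, was at 553, 772 and 1674 and 2.24, 1.4 and 25.2 (-7.25 ± 0.78, adjusted p = 0.000309, and -8.33 without replicate 3), and *Ch25h*, a cholesterol hydroxylase gene, at 833, 836 and 1208 and 20.2, 11.2 and 15 (-5.88 ± 0.24, adjusted p = 5.52e-07). *Nell1*, a secreted glycoprotein gene, was at 2276, 2712 and 2759 and 29.1, 57.2 and 45.8 (-5.89 ± 0.24, adjusted p = 5.52e-07), and the collagen gene *Col9a1* at 474, 549 and 497 and 1.12, 0 and 39.3 (-6.85 ± 1.08, adjusted p = 0.00296, and -8.44 without replicate 3). *Flt4*, the receptor gene for VEGF-C, fell from 522, 589.6 and 620.4 to 5.6, 12.6 and 17.8 (-5.60 ± 0.34, adjusted p = 9.64e-06), while the gene of its ligand, *Vegfc*, rose from 18.4, 28.5 and 4.79 to 736, 438 and 938. *C1ql4*, *C1qtnf7*, *Iigp1*, *Hcar1*, *Cbr2* and *Hlf* made up the rest. All 15 were at or under 118 normalized counts in every high CHIR library. In *Col9a1* and *Hpgd* replicate 3 was well above the other 2, at 39.3 and 25.2, and still far below the low CHIR libraries.

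Among genes called in both fits, the largest changes in mean normalized counts were mostly in other genes. Genes not called, such as *Ccnd2*, were left out of this ranking. *Itm2b* (6465, 7397 and 6478 in low CHIR, 15327, 12371 and 41263 in high CHIR) and *Itm2c* (5772, 6084 and 5745 and 20821, 16065 and 13531), a pair of related membrane protein genes, rose (1.55 ± 0.35, adjusted p = 0.0186 and 1.50 ± 0.16, adjusted p = 0.000336). *Lrp4*, a co-receptor gene that can restrain Wnt signaling, was at 1235, 1123 and 423 and 14778, 16778 and 5202 (3.70 ± 0.55, adjusted p = 0.00203), and *Aldh1a3* and *Cthrc1* were the other 2. On the falling side, *Sparc*, a matrix glycoprotein gene, went from 72344, 78675 and 93201 to 26588, 20558 and 54057 (-1.39 ± 0.29, adjusted p = 0.0125) and *Gpc3*, a heparan sulphate proteoglycan gene, from 23304, 25910.0 and 22638 to 8289, 7790.2 and 5258 (-1.78 ± 0.19, adjusted p = 0.000263). *Nr2f2*, a nuclear receptor gene of mesenchyme (18377, 21251 and 20851 to 5066, 5331 and 7589.6), *Des*, the desmin gene (8862, 11269 and 15427 to 529, 412 and 329), and *Vim* completed the 5 largest falls. These 10 genes were picked among genes whose groups did not overlap, so their separation follows from the selection.

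Control libraries of the other tables offer the same change of dose in cells prepared another way. These were Cas9-expressing NPCs with a GFP guide RNA (2 low and 2 high CHIR libraries), NPCs with a conditional β-catenin allele that received no Cre (2 and 2), and the GFP guide RNA controls of the Tcf/Lef experiment (3 and 3). They share no library with the wild-type comparison. Transfection came before the dose was raised, with a longer time in low CHIR after it in the Tcf/Lef set. The paper describes sorting mCherry-positive, transfected cells before RNA isolation, a step that selects cells. All were normalized apart from the wild-type libraries, and the Cas9 and conditional allele sets shared a normalization and a fit. Values are therefore set side by side without a test between them and the wild-type libraries. Of wild-type calls measured in all 3 sets, 880 of 1139 (77.3%) changed in the same direction in every set, and 1030 of 1340 (76.9%) of those called without replicate 3 did. Set by set the share was 82.7%, 86.1% and 94.5%, against 62.6%, 65.3% and 68.0% over all genes shared with each set.

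These shares can be split by the part that replicate 3 played in the call. The share of all genes with the same direction in all 3 sets is not given here, so the classes are read beside each other only. Of genes called higher with and without that library, 356 of 471 (75.6%) were higher in all 3 control sets, against 43 of 79 (54.4%) of those called only with it and 120 of 196 (61.2%) of those called only without it. For genes called lower, the shares were 423 of 505 (83.8%), 58 of 84 (69.0%) and 131 of 168 (78.0%). *Mixl1*, at 7899 in wild-type high CHIR replicate 3, was at 0 to 17.4 in every low or high CHIR library of the control sets, and *T* at 0 to 5.96.

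Of 144 genes selected for naming that were called in wild-type cells and measured in all 3 sets, 68 were called in the same direction in every set, 2 in the other direction in at least 1 set and 1 in the other direction in all 3. The last was *Sfrp2*, lower in wild-type cells (-1.62 ± 0.37, adjusted p = 0.02) and higher in the control sets (1.90, 1.80 and 2.52), and the other was *Dll1*, which rose by 3.23 in the Tcf/Lef controls and had values of -1.04 and 0.01 in the other sets. Some genes not called in wild-type cells with all libraries rose in all 3 sets. Among them were *Bmp2* (3.93, 3.41 and 2.95) and *Ccnd2* (2.32, 3.02 and 2.79). *Chrna6* (5.72, 5.87 and 5.34) and *Oxtr* (2.20, 2.52 and 3.63), both low in wild-type high CHIR replicate 3, rose too. *Epor*, also low there, was at -1.24, -1.77 and 0.19. *Id2*, at -0.88 in wild-type cells, was at 1.01, 0.95 and 0.11. *Wnt4* had log2 fold changes of 9.01, 8.52 and 6.95 in the Cas9, conditional allele and Tcf/Lef control sets. Wild-type cells had 4.50, and 3.50 without replicate 3. Low CHIR levels of *Wnt4* in the control sets were 7.77 to 31.1 normalized counts. *Jag1* changed by 4.44, 4.61 and 6.03 beside 2.46, and 3.04 without replicate 3. *Lef1* changed by 3.61, 3.95 and 5.37 beside 3.90, and 3.51 without replicate 3. *Lhx1* rose in all 3 sets, by 2.06, 3.32 and 8.5, and *Emx2* by 3.47, 5.88 and 8.9. Their wild-type values were 1.65 and 3.21 with all libraries, and 3.62 and 4.98 without replicate 3. *Pax8* was higher in 1 of the 3 (1.98, adjusted p = 0.00246) and at 0.16 and 0.64 in the others. *Osr1* fell in each set (-3.51, -3.92 and -4.06) but was still read in every high CHIR library there, at 52.6 to 138 normalized counts, and *Six2* had values of -0.74, -2.04 and -3.34 beside -5.40. *Il33* had values of -6.77, -8.08 and -7.69 beside -7.02, and *Cthrc1* rose by 6.04, 6.68 and 6.95. *Itm2b* was not called in the control sets (0.06, 0.03 and 0.10), and *Vim* was at 0.47 and 0.35 in the first 2 and at -0.91 in the third. Other genes called in wild-type cells were called in no control set. They included *Mycn* (0.71, 0.02 and -0.31), *Elavl4* (0.73, 0.21 and -0.66) and *Itga8* (0.08, 0.34 and -0.47). *Krt19* (-0.82, -0.77 and -0.16), *Epcam* (0.16, 0.37 and -0.44) and *Bambi* (0.34, -0.45 and 0.39) were likewise not called there.

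**Figure D5:**
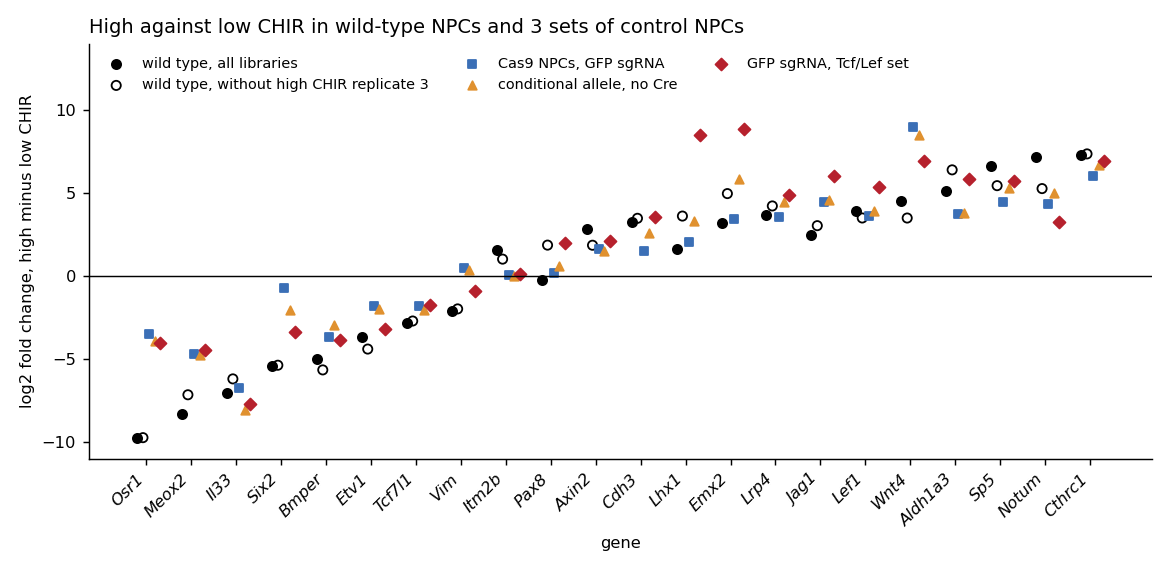
Log2 fold change of high over low CHIR for named genes in the wild-type libraries (all, and without high CHIR replicate 3) and in each of the 3 control sets, 1 symbol per set. *Wnt4*, *Jag1* and *Lef1* lie above 0 and *Osr1* and *Il33* below 0 in every set, while *Itm2b* is near 0 in the 3 control sets and at 1.55 in the wild-type libraries.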

How the data were processed

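RNA from NPC cultures was made into cDNA with the SMARTer Ultra Low RNA kit, which does not mark strand, and sequenced as paired reads. The authors aligned reads to the combined mouse (GRCm38) and human genomes with STAR, counted reads on Ensembl genes with featureCounts, and deposited a signal per gene and library, namely counts divided by 1 DESeq2 size factor per library. From the steps between low values, whole reads were recovered for 100% of values (tolerance 0.1 read). Further deposited tables of comparisons hold the authors' log2 fold changes and p-values, and these and their 50 columns of per-sample values were not used.

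Genes with a mean of at least 10 over the 9 wild-type libraries were tested as log2(normalized count + 1) with limma 3.58.1 (R 4.3.3), using trended prior variance, 1 mean per group and the contrast high minus low CHIR, with Benjamini-Hochberg adjustment. Genes were called where the adjusted p was under 0.05 and the change was 1 or more on the log2 scale. The fit without high CHIR replicate 3 used the same genes. The spread is thus shared by the low, high and no CHIR libraries. Errors after ± are standard errors of the log2 fold change, group sizes are 3 libraries, values stand in the order of replicates 1, 2 and 3, and counting intervals cover counting error only. edgeR 4.0.16 and DESeq2 1.42.0 on the recovered reads, another pseudocount, filters, scalings, a replicate block and leaving out libraries were alternatives. The scripts were tested on simulated data. Gene places come from GENCODE on GRCm38, and promoters from RefSeq on GRCm38.p6. The numbers in the labels were checked for pairing, and the main fit did not use them as pairs. Whether same-numbered libraries belong together was not settled.

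The gene lists and the genes named were chosen with earlier results of these data known. Named were the 15 genes raised and the 15 lowered most (mean of at least 50 over the 6 libraries, called in both fits, no overlap). The 5 largest rises and falls in mean counts under the same limits were named too. So were the 10 genes furthest above and below in high CHIR replicate 3. List members called or among the 2 raised or lowered most, and genes the study names, completed the rule. Genes outside this rule, namely *Bmp4*, *Ccnd1*, *Cdh1*, *Cdh6*, *Cited2*, *Crabp1*, *Ctnnb1*, *Etv4*, *Gap43*, *Gdnf*, *Gsk3b*, *Hoxa11*, *Krt5*, *Lgr5*, *Mecom*, *Mki67*, *Myc*, *Nkd1*, *Nphs1*, *Pou3f3*, *Ret*, *Rnf43*, *Sall1*, *Six4*, *Sox4*, *Spry2*, *Stra6*, *Sv2b*, *Tcf7l2*, *Tfap2a*, *Tnfrsf19*, *Top2a*, *Upk1b*, *Wnt11* and *Wnt5a*, were named after their values were seen. Some members of the nephron segment list are not reported here by name.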

Additional observations from a re-analysis of the deposited data

How the results depend on the processing

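Genes called higher and lower numbered 694 and 628. They numbered 684 and 620 with a pseudocount of 0.5, 702 and 609 with 5, 791 and 648 with no filter, 550.0 and 511 with a minimum mean of 50, 576 and 460.0 with the 6 compared libraries alone, 679 and 644 after TMM rescaling, 684 and 618 with a robust prior, 928 and 880.0 at a log2 fold change of 0.5, 752 and 585 by edgeR and 1030.0 and 727 by DESeq2, where 141 genes had no adjusted p. The higher share of calls was 52.5% and went to 51.3% with TMM, 56.2% by edgeR and 58.6% by DESeq2. Fits with the replicate block called 773 and 657, of which 681 and 596 were shared. The replicate numbers were not taken as pairing, since the correlations of same-numbered libraries were 0.147, 0.039 and 0.095, although each high CHIR library correlated best with its own number. Leaving out 1 library gave 457 to 866 higher and 421 to 736 lower genes, and the lowest counts were those without low CHIR replicate 3. Chosen after seeing the data, leaving out no CHIR replicate 1, the deepest library, gave 671 and 572, and without high CHIR replicate 3 edgeR gave 895 and 719 and DESeq2 960.0 and 780.0. The share of calls with the same direction in all 3 control sets was 72.4% to 81.0% when 1 library was left out, and set by set 80.1% to 85.7%, 81.4% to 87.4% and 90.9% to 95.1%.

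Signs changed in genes where high CHIR replicate 3 stood apart, and the cause was not tested. By edgeR and DESeq2 the log2 fold changes were 1.22 and 1.24 for *Pax8*, 0.65 and 0.68 for *Uncx*, 1.08 and 1.10 for *Oxtr*, 0.33 and 0.35 for *Chrna6* and 0.95 and 0.98 for *Epor*, none of them called. *Tns4* was at 0.19 with a pseudocount of 5 and at 2.89 by edgeR. Leaving out 1 library moved *Pax8* between -1.31 and 1.87, *Uncx* between -1.37 and 1.21, *Oxtr* between -1.26 and 1.72, *Chrna6* between -1.92 and 1.01, *Epor* between -1.42 and 1.54, *Tns4* between -3.75 and 0.46, *Mixl1* between -2.96 and 2.89, *Fgf20* between -2.11 and 2.41, *Cbln1* between -2.14 and 3.12, *T* between -0.38 and 4.01, *Prdm16* between -0.58 and 2.89, *Dkk1* between -0.41 and 1.51, *Twist2* between -0.55 and 0.82 and *Bmp2* between -0.51 and 0.079. *Krt33a* (0 to 5.47), *Defa3* (0 to 4.43), *Defa17* (0 to 4.43), *Defa20* (0 to 4.20) and *Defa32* (0 to 4.20) were at 0 without that library.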
